A study of Mus musculus with 6 samples.

Results

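The axon guidance ligands and receptors measured here are 68 genes of the 24453 listed in each count file, taken by symbol from 11 families: 20 semaphorins, 9 plexins, 2 neuropilins, 5 ephrin-A and 3 ephrin-B ligands, 9 EphA and 5 EphB receptors, 4 netrins, 4 Unc5 receptors, 3 Slit ligands and 4 Robo receptors. RNA was sequenced from cells labelled hair follicle, isolated by sorting from dorsal skin on postnatal day 0. There were 3 libraries labelled only as control and 3 of the genotype Ring1a-/- Ring1b-/I53A, which joins loss of Ring1a, a null allele of Ring1b and the I53A allele of Ring1b in every mutant library. Ring1a (gene Ring1) and Ring1b (gene Rnf2) are the ubiquitin ligases of Polycomb repressive complex 1, and I53A is an allele described as weakening that activity. The sources used here give neither a Cre driver for any allele, nor the genotype behind the control label, nor whether libraries of a group came from separate animals, so p-values measure the spread between these libraries, which may be partly technical. The protocol text describes a Sca1-positive sort of interfollicular epidermis, whereas every sample label says hair follicle.

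Guidance proteins are named for steering growing axons, and epithelia and vessels use them too. Semaphorins signal through plexins, the secreted class 3 members mostly with a neuropilin as co-receptor. Ephrins are bound to the membrane of one cell and Eph receptor tyrosine kinases to that of its neighbour, so that ephrins can also signal back into the cell that bears them, and the pair keeps cell populations apart. Netrins are laminin-related proteins read by Dcc, neogenin and the Unc5 receptors, and Slit proteins are read by Robo receptors. Many genes of these families have promoters rich in CG dinucleotides, the kind of sequence on which Polycomb complexes are known to act in developmental genes.

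Promoter sequences from RefSeq (GRCm38.p6) are shown for a member that rose in the mutants (Efna2), a second risen one (Ntn3, the part of its window before any annotated exon), an abundant one that did not pass the test (Ephb4), and one with almost no reads in any library (Epha8, likewise cut to the part before an exon). CG dinucleotides, searched as the letters CG, which read the same on both strands, are in capitals. Efna2 is the window chr10:80179232-80179481 on the plus strand, Ntn3 chr17:24209532-24209637 on the minus strand, Ephb4 chr5:137349859-137350108 on the plus strand and Epha8 chr4:136956860-136957066 on the minus strand.
Efna2: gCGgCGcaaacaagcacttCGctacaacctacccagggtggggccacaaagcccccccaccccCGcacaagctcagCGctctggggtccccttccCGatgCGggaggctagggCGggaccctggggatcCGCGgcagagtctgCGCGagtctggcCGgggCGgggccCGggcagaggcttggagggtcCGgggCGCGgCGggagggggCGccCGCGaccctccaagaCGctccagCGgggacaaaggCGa
Ntn3: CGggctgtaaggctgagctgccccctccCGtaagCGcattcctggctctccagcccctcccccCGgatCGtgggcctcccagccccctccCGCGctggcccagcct
Ephb4: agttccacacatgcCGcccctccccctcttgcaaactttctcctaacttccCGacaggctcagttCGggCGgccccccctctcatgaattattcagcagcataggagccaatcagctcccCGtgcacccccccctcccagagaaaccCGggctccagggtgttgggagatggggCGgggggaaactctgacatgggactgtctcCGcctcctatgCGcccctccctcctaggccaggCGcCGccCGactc
Epha8: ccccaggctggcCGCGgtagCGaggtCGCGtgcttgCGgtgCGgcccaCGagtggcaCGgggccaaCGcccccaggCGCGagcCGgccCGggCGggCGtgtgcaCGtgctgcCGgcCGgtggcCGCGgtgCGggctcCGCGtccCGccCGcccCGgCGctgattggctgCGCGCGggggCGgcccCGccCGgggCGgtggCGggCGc
In the whole window of 250 bases before the start, Efna2 had 25 CG, Ntn3 11, Ephb4 12 and Epha8 46. Of the 32851 promoter windows in the table, 10.7% held at least as many CG as Efna2, 35.6% as many as Ntn3, 33.5% as many as Ephb4 and 0.323% as many as Epha8, while 92.1% held at least 1. Among the other risen members, Sema5b had 19 and Ephb2 had 20. The stretch of the window before any annotated exon or gene body was 33 bases for Sema5b and 0 for Ephb2. For Ephb2, the bases after the start were also not found in an annotated transcript of the gene. Both counts therefore may not describe sequence before the gene, and both enter the median below. Taking for each gene its window with the most CG, the 4 risen members with an entry had a median of 19.5 (11 to 25). The 45 matched members that were tested and not called had a median of 17 (2 to 39), and all 27025 genes listed had a median of 6. Those 27025 were not limited to genes tested here, so they are not a matched background. Members were not compared with tested genes. The ranges of the risen and the uncalled members overlapped. Epha8, with the highest count of the 59 matched members, had 3 reads in all 6 libraries together.

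Library totals ran from 14335156 to 18811587 counts, and the 68 members held 0.529 to 0.572% of them, with the groups overlapping. In CPM, which are read counts scaled to the library's total and its TMM factor, Ring1 had 16.8, 22.1 and 21.1 in controls and 3.23, 7.09 and 4.88 in mutants (edgeR quasi-likelihood test, Benjamini-Hochberg adjusted p = 0.0113, the test behind every adjusted p below unless another is named). Rnf2 stood at 59.8 ± 6.91 in controls and 67.0 ± 3.68 CPM in mutants (mean ± SD, n = 3 libraries per group, as in all pairs of values below; adjusted p = 0.736). The 13 markers of follicle and epidermal keratinocytes summed to 14937 to 18087 CPM in controls and 16211 to 22129 CPM in mutants, and all were detected. One of them, the follicle stem cell marker Lgr5, fell from 178 to 83.6 CPM (adjusted p = 0.0125). With the replicate number as a block, explained below, 3 of the 13 rose (Cdh1, Krt5 and Krt17) and 2 fell (Lgr5 and Shh). In that fit 6.09% of all tested genes rose and 3.29% fell, so the 13 were called more often than genes at large. Of markers of other cells, 8 dermal fibroblast genes summed to 593 to 1027 and 657 to 931 CPM, and 7 endothelial genes to 11.3 to 15.5 and 13.6 to 29.3 CPM. The 10 Schwann cell and neuron genes summed to 113 to 195 and 105 to 181 CPM, nearly all of it Erbb3, which keratinocytes also express. The neuronal markers Tubb3, Elavl4 and Stmn2 reached at most 1.16, 0.357 and 1.07 CPM in any library. The 7 melanocyte genes summed to 26.1 to 47.7 and 27.9 to 58.4 CPM, the 8 muscle genes to 8.10 to 18.3 and 7.06 to 12.0 CPM, the 8 immune genes to 16.5 to 73.3 and 15.3 to 26.9 CPM, and the 8 Merkel cell genes to 21.6 to 56.9 and 30.6 to 55.2 CPM. Of the 56 genes of these 7 lists, edgeR tested 34, with 3 of the 7 endothelial and 3 of the 8 muscle genes. It called none (0 higher and 2 lower at an unadjusted p under 0.05), where 2.59% of all tested genes rose and 0.404% fell. At those shares few or no calls would come from 34 genes. DESeq2 called 2 of the 56 lower, or 3.57% (3 higher and 4 lower unadjusted), where it called 230 of 20001 genes lower. The untested endothelial genes were Kdr (0.393 and 1.99 CPM), Emcn (0.0378 and 0.656), Tie1 (0.0854 and 1.22) and Cldn5 (0.386 and 0.288). None of the 56 was at 0 in all 6 libraries, and no sum separated the groups. The part of such cells in the results below was not tested. In sorted bulk RNA, fewer cells of a type and less RNA per cell cannot be told apart.

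In 5 families, 1 gene each rose in the mutant cells: the semaphorin gene Sema5b, the ephrin genes Efna2 and Efnb3, the receptor gene Ephb2 and the netrin gene Ntn3. One gene, Sema6a, fell. Calls were made in edgeR's two-sided quasi-likelihood test over 14345 genes, where the adjusted p was under 0.05. Of the 68 members, 58 passed the filter on low counts; 5 of them rose (8.62%) and 1 fell (1.72%), where 2.59% of all tested genes rose and 0.404% fell. The 5 risen genes lay among the 22 members under the median control level of all tested genes (17.4 CPM), 22.7% of those, while 4.07% of all genes under that level rose. Some genes under that level can pass the filter through the mutants alone, so the share is a description. Among the risen genes, the lowest control library had 3 reads for Sema5b, 18 for Ntn3, 38 for Efnb3, 89 for Efna2 and 154 for Ephb2. None of the 36 members at or over it rose by edgeR (background 1.12%), with 2 higher at an unadjusted p under 0.05 and 1 called by DESeq2. The groups did not overlap for 21 of the 58 (12 higher and 9 lower in mutants), which is 36.2% against 21.2% of all tested genes (12.1% higher and 9.15% lower). At an unadjusted p under 0.05, 29.3% of the members and 14.9% of all tested genes passed. The median log2 fold change of the 58 was 0.07, and -0.0033 over all genes tested. The plot of CPM by library shows the 6 called genes beside 6 others.

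**Figure D1:**
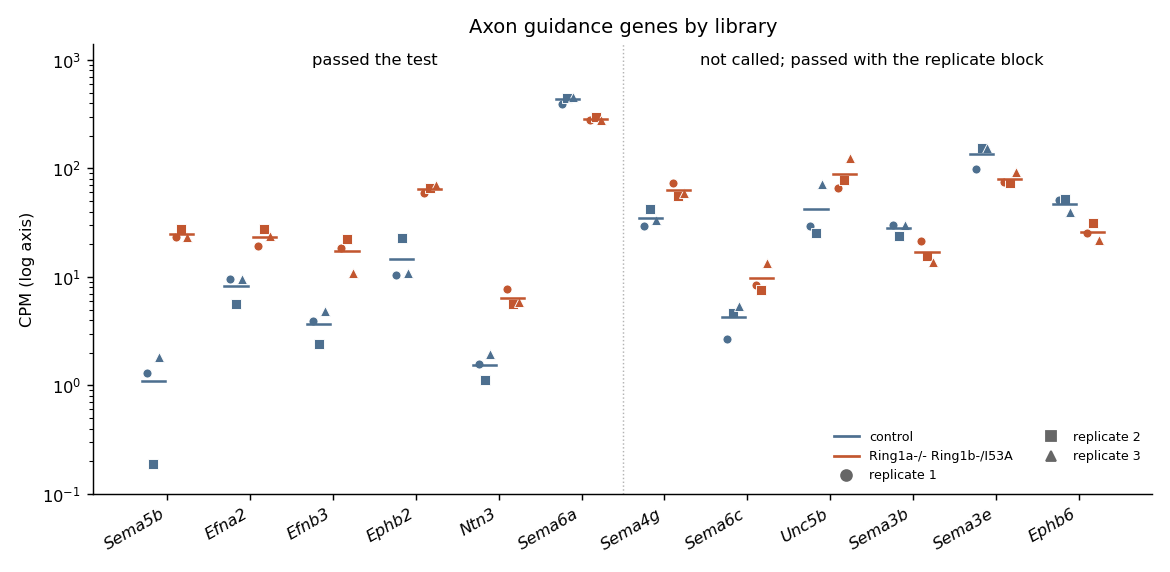
CPM on a log axis in each of the 3 control and 3 mutant libraries (marker shape gives the replicate number, bars the group mean) for the 6 called genes and for 6 that were not called but passed with the replicate block. The groups do not overlap for any gene except Unc5b, where control 3 lies above mutant 1.

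The labels number the replicates 1 to 3 in both groups, and same-numbered libraries deviated together. With the replicate number as a block, 8 members rose and 4 fell (13.8% and 6.90%), against 6.09% and 3.29% of all tested genes. The 6 added were Sema4g, Sema6c and Unc5b upward and Sema3b, Sema3e and Ephb6 downward, and the 6 genes named above kept their calls. DESeq2, which used no block, called those 6 too, with Sema4f and Sema4g upward and Sema3e and Ephb6 downward. That made 7 of the 68 members higher (10.3%) and 3 lower (4.41%). Of all 20001 genes with reads, DESeq2 called 724 higher and 230 lower, more than edgeR without the block.

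Among the semaphorins, Sema5b had the largest log2 fold change of the 58 tested members. It encodes a transmembrane semaphorin of class 5 (chromosome 16, 35541145 to 35664732, GRCm38, plus strand). The controls had 19, 3 and 32 reads, or 1.29, 0.188 and 1.81 CPM, and the mutants 423, 466 and 347 reads, or 23.2, 27.8 and 23.2 CPM. Every mutant library was far above the highest control. The mean went from 1.10 ± 0.830 to 24.7 ± 2.65 CPM, a log2 fold change of 4.47 (SE 0.55, adjusted p = 0.00277), and the call held in each of the 6 fits without 1 library (3.97 to 5.08). Its class mate Sema5a, the semaphorin with the most reads, was at 705 ± 147 and 563 ± 109 CPM (adjusted p = 0.516). Per kilobase of exon, Sema5b made up 0.0758 ± 0.0545% of the summed semaphorin level in controls and 1.98 ± 0.284% in mutants, below most other semaphorins in both groups.

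Sema6a, a transmembrane class 6 semaphorin that signals through plexins A2 and A4 (chromosome 18, 47235598 to 47368870, minus strand), fell. It was at 390, 447 and 458 CPM in controls and 278, 296 and 280 CPM in mutants, where all mutant values were below all control values. The log2 fold change was -0.60 (SE 0.14, adjusted p = 0.0490). This call was marginal: it was lost in each of the 6 fits without 1 library (adjusted p 0.0822 to 0.177), with DESeq2-type size factors (0.0523), library totals (0.0561) and a stricter filter (0.0502), while with the block it was 0.00469. Per kilobase of exon Sema6a led the semaphorins, at 24.3 ± 1.15% of the family's summed level in controls and 18.3 ± 1.29% in mutants.

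No secreted class 3 semaphorin was called by edgeR without the block, and DESeq2 called Sema3e. Sema3e, a ligand of plexin D1 known from vessel patterning, was at 99.1, 156 and 155 CPM in controls and 74.1, 73.6 and 93.2 CPM in mutants. All mutant libraries were below all controls, with a log2 fold change of -0.77 (SE 0.21), an adjusted p of 0.0906, and 0.0127 with the block and 0.0276 by DESeq2. Sema3b had 29.9, 24.0 and 30.1 against 21.4, 15.5 and 13.7 CPM (-0.73 on the log2 scale, SE 0.23, adjusted p = 0.159, and 0.0476 with the block), again without overlap. Sema3a, the founding axon repellent of the class, was at 87.9, 93.3 and 75.6 CPM in controls and 83.8, 89.9 and 54.4 CPM in mutants (adjusted p = 0.798). Sema3c, Sema3d and Sema3f lay between 51.0 and 113 CPM in every library and were not called. In classes 4 and 6, Sema4g was at 29.5, 42.3 and 33.1 CPM in controls and 73.8, 55.6 and 59.2 CPM in mutants, without overlap. Its log2 fold change was 0.85 (SE 0.21), with an adjusted p of 0.0622. It passed with the block (0.0238), without a filter (0.0372) and by DESeq2 (0.0115). Sema6c was at 2.65, 4.64 and 5.39 against 8.49, 7.56 and 13.4 CPM (1.21, SE 0.39, adjusted p = 0.157, and 0.0493 with the block). Sema4a, Sema4b, Sema4c, Sema4d, Sema6b, Sema6d and Sema7a were not called in either fit.

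Among their receptors, none of the 9 plexin genes or 2 neuropilin genes was called, with or without the block or by DESeq2 (1 plexin at an unadjusted edgeR p under 0.05), with log2 fold changes between -0.80 and 0.86. Plxna1, the leading plexin per kilobase of exon, was at 422 ± 7.70 and 387 ± 48.2 CPM (adjusted p = 0.785). Plxnc1, a receptor of Sema7a and the plexin with the smallest p, was at 19.1, 12.6 and 9.19 CPM in controls and 20.5, 19.6 and 24.8 CPM in mutants, without overlap (0.67 on the log2 scale, SE 0.29, adjusted p = 0.313). Plxnd1, the receptor of Sema3e, was at 15.7 ± 5.12 and 23.7 ± 3.44 CPM (adjusted p = 0.342). Of the neuropilins Nrp2 predominated, at 338 ± 17.1 and 298 ± 32.9 CPM, with Nrp1 at 10.1 ± 2.63 and 12.2 ± 3.16 CPM. Per kilobase of exon Nrp2 was 96.5% of the neuropilin level in controls.

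**Figure D2:**
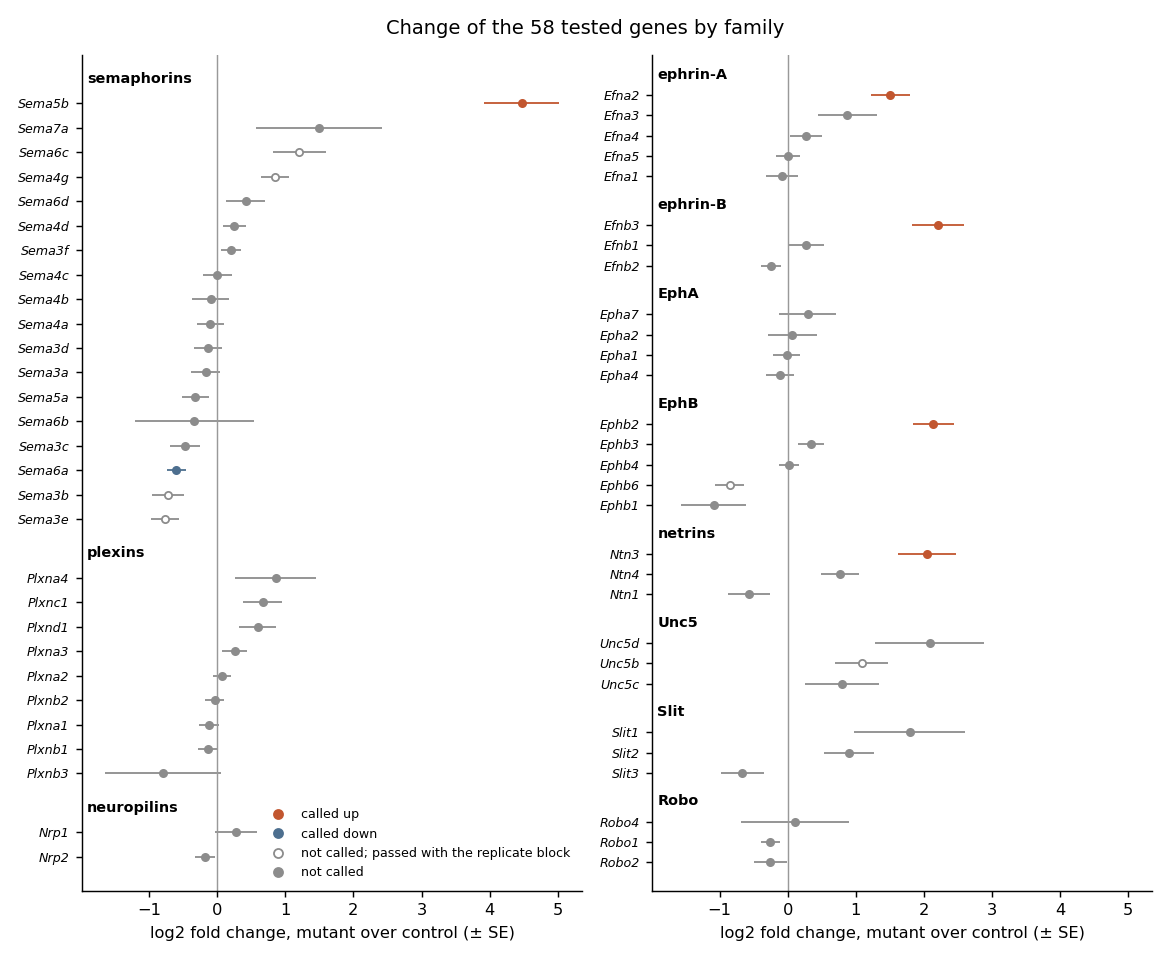
Log2 fold change of mutant over control with its standard error for the 58 tested genes, grouped by family and ordered within each. Filled orange points rose, the filled blue point (Sema6a) fell, and open points were not called and passed with the replicate block; plexins and neuropilins all lie between -0.80 and 0.86.

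Of the 8 ephrin genes 2 rose, 1 in each class. Efnb3 encodes ephrin-B3, a transmembrane ligand best known as a midline barrier for spinal axons (chromosome 11, 69554092 to 69560205, minus strand). It had 3.88, 2.38 and 4.88 CPM in controls and 18.3, 22.3 and 11.0 CPM in mutants, so the groups stood apart although mutant 3 was lower than the other mutants. The log2 fold change was 2.21 (SE 0.38, adjusted p = 0.0136). The call was lost without control 1 (0.0632), mutant 1 (0.0570) or mutant 2 (0.0748), with a log2 fold change of 1.96 to 2.47 over the 6 such fits. The other ephrin-B genes were far more abundant and not called: Efnb2, the arterial ephrin, was at 261 ± 11.0 and 221 ± 23.2 CPM (adjusted p = 0.498), and Efnb1 at 56.5 ± 16.2 and 68.4 ± 18.5 CPM (adjusted p = 0.716). Per kilobase of exon, Efnb3 was 2.07 ± 0.576% of the ephrin-B level in controls and 9.59 ± 3.60% in mutants.

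Efna2 encodes ephrin-A2, a lipid-anchored ligand of the retinotectal map (chromosome 10, 80179482 to 80190010, plus strand), whose promoter window with 25 CG is printed above. The uncalled ephrin-A genes lay on both sides of that count. Efna5 had 32 CG, Efna3 31 and 19 by window, Efna1 18 and 16, and Efna4 7. It had 9.60, 5.58 and 9.53 CPM in controls and 19.1, 27.4 and 23.8 CPM in mutants, without overlap. The log2 fold change was 1.51 (SE 0.28, adjusted p = 0.0213). The call was lost without control 1 (0.0632) or mutant 2 (0.108). Efna5, the most abundant ephrin-A gene, was at 154 ± 30.4 and 155 ± 13.3 CPM (adjusted p = 0.988). Efna1, Efna3 and Efna4, neighbours on chromosome 3, were at 26.8, 9.85 and 24.4 CPM in controls and 25.4, 18.1 and 29.4 CPM in mutants, and none was called. Per kilobase of exon Efna2 was 5.20 ± 1.83% of the ephrin-A level in controls and 12.3 ± 2.13% in mutants.

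On the receptor side, Ephb2 was the 1 Eph gene that rose. It encodes a kinase that binds the ephrin-B ligands, known for sorting cells along the intestinal crypt (chromosome 4, 136647539 to 136835988, minus strand). Controls had 10.5, 22.8 and 10.9 CPM and mutants 59.4, 65.5 and 70.1 CPM. Control 2 was above the other controls, yet the lowest mutant was well above it. The log2 fold change was 2.14 (SE 0.31, adjusted p = 0.00591), and the call held in all 6 fits without 1 library (1.95 to 2.60). Ephb4, the receptor of ephrin-B2 on veins and the member with the highest level per kilobase of exon over the 6 libraries, was at 207 ± 10.8 and 210 ± 25.6 CPM (0.02 on the log2 scale, SE 0.15, adjusted p = 0.971). Ephb2 was 1.78 ± 0.849% of the EphB level per kilobase in controls and 7.78 ± 0.137% in mutants, so that Ephb4 still led.

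The other EphB genes differed in direction. Ephb6, whose kinase domain is inactive, had 50.6, 51.9 and 39.2 CPM in controls and 25.5, 31.1 and 21.9 CPM in mutants, without overlap (-0.85 on the log2 scale, SE 0.21, adjusted p = 0.0654). It passed with the block (0.00966), by DESeq2 (0.00850), without a filter (0.0448) and without control 3 (0.0332). Ephb1 was at 3.82 ± 0.827 and 1.79 ± 0.394 CPM (adjusted p = 0.323) and Ephb3 at 45.3 ± 4.12 and 57.4 ± 8.88 CPM (adjusted p = 0.454). Of the 9 EphA genes 4 were tested and none was called, with or without the block or by DESeq2 (0 at an unadjusted edgeR p under 0.05). Epha2, the leading one per kilobase, had 79.0, 102 and 138 CPM in controls and 72.2, 75.8 and 186 CPM in mutants, the high value being mutant 3. Its log2 fold change was 0.07 (SE 0.36, adjusted p = 0.959) and -0.52 without mutant 3. Epha7, the EphA gene with the smallest p, was at 24.6 ± 10.0 and 30.1 ± 14.9 CPM (adjusted p = 0.829). Epha4 was at 180 ± 16.9 and 166 ± 44.2 CPM and Epha1 at 53.4 ± 9.49 and 52.8 ± 7.77 CPM.

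**Figure D3:**
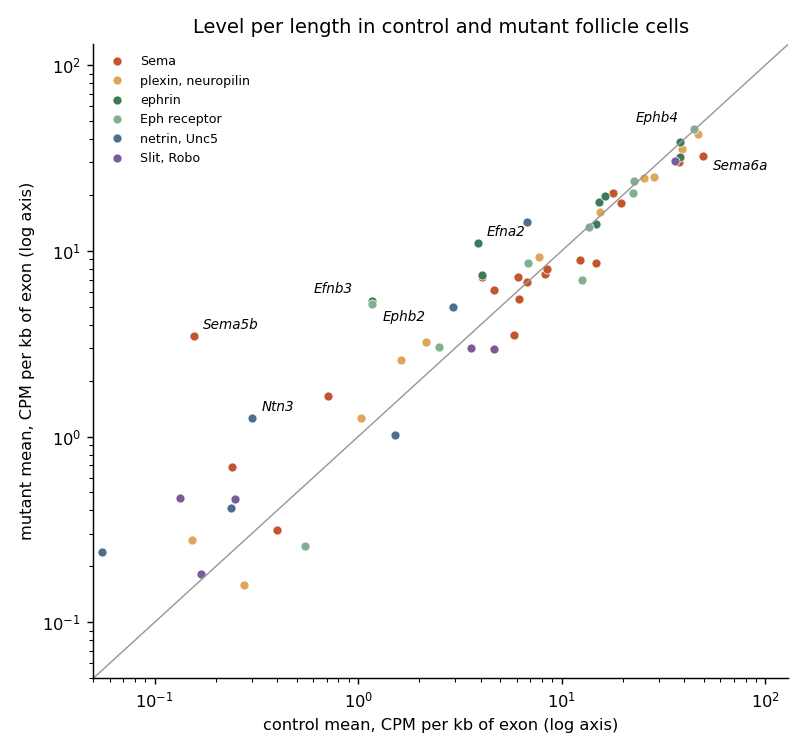
Mean CPM per kilobase of exon in controls (horizontal, log axis) and mutants (vertical, log axis) for the 58 tested genes, coloured by family, with the diagonal of equal levels. The 5 risen genes lie above the diagonal at control levels of 0.155 to 3.86, and the abundant members, Ephb4 among them, lie near it.

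The netrin gene Ntn3 (chromosome 17, 24203848 to 24209531, minus strand) rose from a low level. Controls had 23, 18 and 34 reads, or 1.57, 1.13 and 1.93 CPM, and mutants 141, 94 and 88 reads, or 7.72, 5.60 and 5.88 CPM, without overlap. The log2 fold change was 2.05 (SE 0.43, adjusted p = 0.0332). Among the fits without 1 library the call was kept only without control 3, the others giving adjusted p of 0.0734 (without mutant 3), 0.0805 (control 2), 0.107 (mutant 2), 0.113 (control 1) and 0.159 (mutant 1). Exons of Ntn3 overlap those of Tbc1d24 on the same strand and of BC028777 on the other, so their reads may be shared. The level of Tbc1d24 itself was 15.5 ± 5.36 CPM in controls and 30.6 ± 7.91 CPM in mutants. Its adjusted p was 0.140, and 0.00869 with the block. The part of such shared reads in the rise of Ntn3 was not tested.

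Ntn1, the classical floor plate netrin, was at 9.51 ± 1.28 and 6.43 ± 1.43 CPM (adjusted p = 0.452), and Ntn4, a netrin of basement membranes and the highest of the family per kilobase of exon, at 11.0 ± 1.92 and 18.7 ± 4.98 CPM (adjusted p = 0.212). Of the netrin receptors, Unc5b was at 29.7, 25.6 and 71.1 CPM in controls and 65.3, 78.3 and 125 CPM in mutants. Control 3 lay within the mutant range, while each mutant was above the control of its own number. The log2 fold change was 1.09 (SE 0.39, adjusted p = 0.209), with an adjusted p of 0.00309 with the block and 0.00718 without control 3. Unc5c was at 4.53 ± 2.72 and 7.87 ± 4.21 CPM and Unc5d at 0.510 ± 0.215 and 2.19 ± 1.68 CPM, neither called. Outside the member rule, the netrin receptor gene Neo1 was at 432 ± 44.3 and 353 ± 22.8 CPM (adjusted p = 0.389), and Dcc had 8 reads in all.

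No Slit or Robo gene was called, with or without the block or by DESeq2 (1 Slit gene at an unadjusted edgeR p under 0.05). Robo1, one of the most highly read members, was at 543, 638 and 608 CPM in controls and 516, 528 and 457 CPM in mutants. The mutants were all lower, by little (log2 fold change -0.25, SE 0.14, adjusted p = 0.464). Robo2 was at 60.6 ± 11.9 and 50.8 ± 13.9 CPM and Robo4, the endothelial member, at 0.893 ± 0.635 and 0.967 ± 0.513 CPM. Slit2 was at 6.06, 9.34 and 3.57 CPM in controls and 12.5, 10.1 and 12.8 CPM in mutants (0.90, SE 0.37, adjusted p = 0.288). Slit3 was at 28.3 ± 9.20 and 17.9 ± 6.23 CPM (-0.66, SE 0.32, adjusted p = 0.382) and Slit1 at 0.789 ± 0.803 and 2.77 ± 1.19 CPM (adjusted p = 0.350).

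Taken by their level per kilobase of exon over the 6 libraries, the leading members were Ephb4, Plxna1, Sema6a, Efna5, Plxnb1, Efnb2, Sema5a, Robo1 and Nrp2. In controls Ephb4 stood at 44.6 ± 2.33, Plxna1 at 46.6 ± 0.851 and Sema6a at 49.2 ± 4.14 CPM per kilobase, within each other's spread. Then came Plxnb1 (38.9 ± 2.67), Efna5 (38.3 ± 7.53), Efnb2 (38.1 ± 1.6), Sema5a (37.7 ± 7.87) and Robo1 (36.1 ± 2.94), likewise within their spread. Of the 15 members over 100 CPM on average, Sema6a was the 1 called by edgeR as reported, and DESeq2 and the block each called Sema3e besides. Summed within a family, the ephrin-A level was 70.5 to 84.6 CPM per kilobase in controls and 88.8 to 89.6 in mutants. The netrin level was 4.38 to 5.19 and 5.75 to 8.84, and the Robo level 36.1 to 42.1 and 31.5 to 34.7. In the other 8 families the summed levels of the groups overlapped. Of single tested genes, 21.2% had groups that did not overlap. The 3 separated sums held much of their control level in genes that were not called. Efna5 was 50.3% of the ephrin-A level, Ntn4 61.6% of the netrin level and Robo1 90.6% of the Robo level.

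The 10 members removed by the filter had at most 32 reads in any library. They were Sema3g, Sema4f, Epha3, Epha5, Epha6, Epha8, Epha10, Ntn5, Unc5a and Robo3. More reads fell to the mutants than to the controls in 6 of them. None was called by edgeR without a filter (2 at an unadjusted p under 0.05). Sema4f had 0 reads in all controls and 30, 4 and 7 in the mutants, at least 13.2-fold higher against a floor of 3 counts over the control group. Most of these reads were in mutant 1, without which the bound was 5.57-fold. DESeq2 called it (adjusted p = 0.0250) and edgeR without a filter did not (0.0795). Sema3g had 4 reads over the controls and 4, 18 and 15 in the mutants, and Unc5a 12 against 20, 6 and 32. Epha8, which lies beyond the C1q genes next to Ephb2, had no reads in controls and 3 in mutants, so a level was not detectable at this depth.

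The genes that flank the 6 called members were looked up for what the members share in position, taking the nearest pair of listed protein-coding genes on each side. Of 24 such neighbours 20 were tested and none was called by edgeR (3 higher and 0 lower at an unadjusted p under 0.05). Over all tested genes 2.59% rose and 0.404% fell, and 14.9% had an unadjusted p under 0.05. At those shares few or no calls would come from 20 genes, so the count does not set the neighbours apart from other genes. With the block (5% of the 20, against 6.09% of all tested genes rising), and by DESeq2 (adjusted p = 0.0419), Tbc1d24 was the 1 called. Next to Sema5b, Pdia5 was at 0.547 and 2.24 CPM (adjusted p = 0.272) and Dirc2 at 18.8 and 22.6 CPM (adjusted p = 0.737). Beside Efnb3, Dnah2 was at 4.50 and 4.88 CPM and Wrap53 at 3.50 and 2.41 CPM. C1qb, the nearest listed gene on the other side of Ephb2 from Lactbl1, was at 1.73 and 1.76 CPM.

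Inside the cell, guidance signals pass through collapsin response mediators, small GTPases and their regulators. Of 83 such effectors and further receptors, 76 were tested, 2 rose and none fell by edgeR (10 higher and 4 lower at an unadjusted p under 0.05), and the median log2 fold change was 0.01. The 2 are 2.63% of those tested, near the 2.59% over all genes. Of all tested genes 0.404% fell, and 14.9% had an unadjusted p under 0.05. Both risen genes encode collapsin response mediators, a family known for relaying semaphorin 3A signals to the cytoskeleton. The other genes of that family on the list were not called by edgeR without the block. Dpysl2 was at 13.4 and 20.2 CPM (adjusted p = 0.296). Dpysl4 was at 0.367 and 0.907 CPM (0.624), and Crmp1 at 0.781 and 0.838 CPM (0.982). Dpysl5 had 32.3, 50.0 and 36.9 CPM in controls and 181, 201 and 250 CPM in mutants, a log2 fold change of 2.41 (SE 0.21, adjusted p = 0.000526). Dpysl3 had 27.0, 22.7 and 38.2 against 76.4, 110 and 80.5 CPM (1.6 on the log2 scale, SE 0.24, adjusted p = 0.00761). For both, every mutant library was above every control, and both calls held in all 6 fits without 1 library. Chn2, a chimaerin that acts on Rac, had 1.95 ± 0.864 CPM in controls and 9.58 ± 4.90 CPM in mutants, with an adjusted p of 0.0510, or 0.00541 with the block and 0.000582 by DESeq2. Ntng2, a membrane-anchored netrin relative, had 0.842 ± 0.361 and 7.55 ± 6.49 CPM (adjusted p = 0.0571, and 0.000228 by DESeq2). With the block 5 of the 76 rose (6.58%) and 4 fell (5.26%), where 6.09% of all tested genes rose and 3.29% fell. The share that rose was thus near that of all genes.

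**Figure D4:**
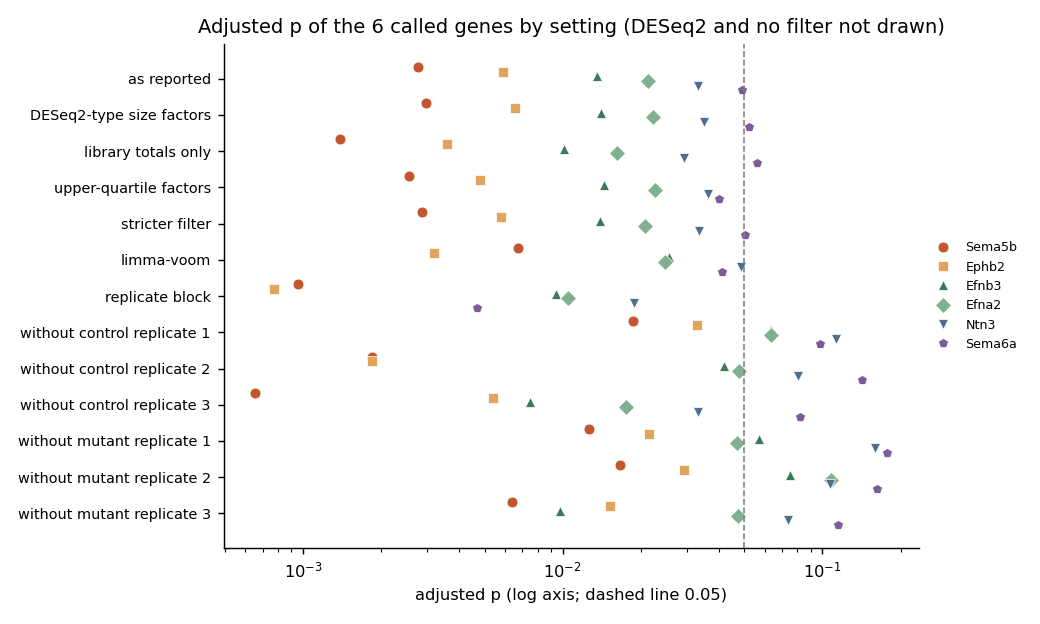
Adjusted p (log axis, dashed line at 0.05) of the 6 called genes as reported and under 12 of the 14 alternatives. Sema5b and Ephb2 stay left of the line in every row. Sema6a crosses it in all 6 fits without 1 library, and with DESeq2-type size factors, library totals and the stricter filter. Of the fits without 1 library, Ntn3 crosses it in 5, Efna2 in 2 and Efnb3 in 3.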

How the data were processed

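For each library the authors deposited raw counts, whole numbers of reads for each gene symbol. The submitters' processing notes name the build mm10 and, with no roles, HTSeq 0.6.1, TopHat2 2.0.13, DESeq2 1.6.3 and Cufflinks 2.2.1. Neither strand setting nor annotation is given in the sources used here, so reads of overlapping genes may be shared. Per the labels' protocols, 10 ng of total RNA was amplified before library construction and read as single 100-nucleotide reads, so counts are not independent molecules.

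Members were matched by symbol, and all 68 matched 1 gene of GENCODE M21 (GRCm38, the build of mm10), which gave positions and exon lengths. The test was edgeR's quasi-likelihood test (edgeR 4.0.16, R 4.3.3; TMM factors, filterByExpr, group only) with Benjamini-Hochberg adjustment over 14345 genes, called at 0.05, two-sided. The steps were tested on simulated counts with known fold changes, drawn with dispersions fitted to these libraries and without replicate pairs. Whether the calls made here hold was not tested by that simulation. CPM are counts over the library total times its TMM factor. The SE comes from the F statistic. CPM per kilobase divides by the merged exon length. A count of 0 allows up to 3 counts, or 0.159 to 0.209 CPM, for counting error only. Same-numbered libraries deviated from their group means together, at correlations of 0.168 to 0.363, and the replicate block was used as the paired fit. Control and mutant libraries of different number gave 0.0891 or less. Deviations within a group cancel out, so these lower values are tied to the first ones and are not separate evidence. Whether the numbers mark true pairs was not tested. The pairing comes from the data, not the labels.

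Alternatives were other scaling, other filters, DESeq2 1.42.0, limma-voom (limma 3.58.1), the replicate block and leaving out each library. Genes named are the members called with or without the block, the highest and the smallest-p member of each family, small families by their levels, and of the effector list the called genes and those with the next smallest p. Further members were given for completeness, and Neo1, Dcc, Tbc1d24 and the flanking genes were added after their values were seen. The members and lists were chosen with earlier results of these data known.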

Additional observations from a re-analysis of the deposited data

How the results depend on the processing

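Over 14 alternatives, Sema5b and Ephb2 kept their calls in 14, Efna2 in 12, Efnb3 in 11, Ntn3 in 9 and Sema6a in 5. The count of risen members (5) was 8 with the replicate block and 2 to 6 without 1 library. The count of fallen members (1) was 0 with DESeq2-type size factors, library totals or the stricter filter, 2 with no filter, 3 with DESeq2, 4 with the block, and 0 to 1 without 1 library. Risen effectors (2) numbered 5 with library totals, no filter or the block, and 7 with DESeq2; fallen ones (0) numbered 4 with the block, and at an unadjusted p under 0.05 edgeR had 4 lower and DESeq2 4. Over all genes, 372 rose and 58 fell; DESeq2 gave 724 and 230, the block 873 and 472, no filter 109 falls, and fits without 1 library 143 to 554 rises and 19 to 110 falls. The cause of these shifts was not tested. Direction was checked for 28 of the genes named above. Of 392 pairs of such a gene and an alternative, 13 changed direction. These fell in 4 genes, whose log2 fold change as reported was at most 0.296 in size. Some uncalled members outside the 28 changed direction too without 1 library, among them Sema3a (-0.31 to 0.021) and Epha4 (-0.33 to 0.057). Efna5 gave -0.000501 with DESeq2-type size factors and -0.000730 with DESeq2, and -0.12 to 0.15 without 1 library. Epha2 gave -0.059 with limma-voom, -0.036 with the block, and -0.52 to 0.31 without 1 library. Without 1 library Epha7 gave -0.088 to 0.63 and Ephb4 -0.076 to 0.10. The replicate block changed no call of a named member or effector beyond those given with them. Reads limit members under about 1 CPM.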
